A study of Mus musculus with 9 samples.

Results

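The proton pump and bone resorption machinery was described through 34 genes of the 18272 in the deposited table, chosen by gene symbol from their known roles. The 34 genes encode the subunits of the vacuolar proton pump (V-ATPase), the transporters and carbonic anhydrase that balance the acid it secretes, the enzymes that digest bone matrix, and proteins for lysosome traffic, cell fusion and attachment to bone. They were divided by textbook knowledge into 8 osteoclast-enriched genes (*Tcirg1*, *Atp6v0d2*, *Ctsk*, *Acp5*, *Dcstamp*, *Ocstamp*, *Itgb3* and *Oscar*), 17 ubiquitous pump subunits and accessory proteins, and 9 partner genes used in many cell types. Earlier results of these data were known when the genes were chosen, so the medians of these classes are descriptions and not independent evidence. Of the 34 genes, 33 had at least 10 counts in at least 3 libraries and were tested, and *Ocstamp* was not.

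RNA-seq libraries came from the tibia of 9 female C57BL/6J mice, which were 10 to 11 weeks old when purchased. The 3 NGT mice had normal glucose tolerance, received the vehicle of streptozotocin and then saline. The 3 T1D mice were made diabetic by a single injection of streptozotocin, which kills the beta cells of the pancreas, and then received saline. The 3 Lira mice were made diabetic in the same way and then received liraglutide at 0.6 mg/kg/day, a drug that activates the receptor of the incretin hormone GLP-1. Treatment is given as 8 weeks in the study's methods, whereas the label of Lira mouse 3 gives 9 weeks. The diabetes of this model follows chemical loss of beta cells, and each library holds RNA of a whole tibia sample rather than of sorted osteoclasts. In such bulk samples fewer osteoclasts and less RNA per osteoclast cannot be told apart.

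Library totals lay between 13086373 and 16528394 counts, and a gene at 0 may have had up to 3 counts, which is 0.163 CPM in T1D mouse 1 and 0.237 CPM in NGT mouse 3, the extremes of the 9 libraries (counting error only). CPM values are counts scaled to the library total of the tested genes, with TMM factors between 0.883 and 1.25. Genes of other cell types differed widely between the libraries. The summed level of 10 osteoblast markers was 5593 CPM in T1D mouse 1 and 207 to 1397 CPM in the other 8 libraries. The 11 macrophage markers summed to 985 CPM in T1D mouse 1 and to 49.5 to 147 CPM elsewhere. The 10 megakaryocyte and platelet markers summed to 461 CPM in Lira mouse 3 and to 3.79 CPM in NGT mouse 2. The 15 skeletal muscle markers took 12.2% (T1D mouse 1) to 23.8% (NGT mouse 3) of a library's counts, although the bones are described as cleaned of muscle. Of the 7 osteoclast markers that are no members, which summed to 107 to 268 CPM, *Nfatc1*, *Mmp9* and *Ostf1* were the most abundant, while the more specific *Siglec15* (0.078 to 0.918 CPM) and *Calcr* (0.312 to 1.11 CPM), named after their values were seen, were low. The 11 neutrophil markers summed to 8.43 CPM in NGT mouse 2, to 5514 CPM in Lira mouse 3 and to 57.7 to 2526 CPM elsewhere. In each group mouse 2 had the lowest neutrophil, megakaryocyte and erythroid sums. T1D mouse 1 and Lira mouse 3 stand apart by high sums and NGT mouse 2 by low ones, and the values that moved most without them are also given without them.

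An osteoclast seals off a patch of bone, and its V-ATPase pumps protons into the sealed space so that mineral dissolves. The pump has a membrane sector (V0) that conducts protons and a cytosolic sector (V1) that splits ATP, and most of its subunits are used by the lysosomes of every cell. Osteoclasts add their own paralogs, the a3 subunit encoded by *Tcirg1* and the d2 subunit encoded by *Atp6v0d2*. Loss of *Tcirg1*, *Clcn7*, *Ostm1*, *Car2*, *Snx10*, *Plekhm1* or *Ctsk* is known to cause dense bone in humans or mice.

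The osteoclast-enriched genes had a higher mean in T1D than in NGT mice, while the ubiquitous subunits of the same pump stood at nearly the same level in both groups. All 7 tested osteoclast-enriched genes had a positive log2 fold change in T1D against NGT mice, from 0.36 for *Itgb3* to 2.30 for *Ctsk*, with a median of 1.85. The 17 ubiquitous genes had a median of 0.16 and a range of -0.27 to 0.70, and the 9 partners had a median of -0.03. The median over all tested genes was 0.02. In Lira against T1D mice, 6 of 7 osteoclast-enriched genes had a negative log2 fold change, with a median of -1.16, against -0.08 for the ubiquitous genes, 0.14 for the partners and 0.04 for all tested genes. In Lira against NGT mice the medians were 0.73, 0.01 and 0.16 in the order enriched, ubiquitous and partners. Without T1D mouse 1 and Lira mouse 3, where *Dcstamp* and *Oscar* were too low to be tested, the medians of the other 5 enriched genes were 1.29, -1.25 and 0.04 in the 3 comparisons, and without NGT mouse 2 the first was 1.37. Markers of other cell types had medians in T1D against NGT and in Lira against T1D mice of 0.71 and -1.20 for 10 osteoblast, 0.60 and -0.99 for 7 adipocyte and 2.58 and -1.37 for 10 macrophage markers. When T1D mouse 1 was left out these medians were -0.43 and 0.23, -0.55 and -0.08, and 0.43 and 0.13, while those of the enriched genes, then without *Dcstamp*, were 1.39 and -0.69. The 9 erythroid markers had medians of 0.98 and 0.84, with 9 of 9 positive in the first comparison, and of 1.44 and 0.42 when T1D mouse 1 was left out. The part of these cell types in the enriched genes was not tested. The comparisons share mice, so that the values of the T1D mice enter the first and the second with opposite signs.

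None of these differences passed the test. No gene of the 13960 tested, member or not, had both a fold change over 2 and an adjusted p-value under 0.05 (0.0% of genes in each comparison, edgeR quasi-likelihood F-test, Benjamini-Hochberg adjustment). The lowest adjusted p-value of a member was 0.977 in T1D against NGT mice, 0.978 in Lira against T1D mice and 0.999 in Lira against NGT mice (edgeR quasi-likelihood F-test, Benjamini-Hochberg adjustment). DESeq2 called 0, 1 and 0 genes in the same order, the 1 gene being *Gpm6b*, which is no member and was named after its value was seen. With no fold threshold DESeq2 called 2, 1 and 0 genes. In T1D against NGT mice 552 genes (3.95%) were below an unadjusted p-value of 0.05, as were 2 members, *Ctsk* (higher) and *Ostm1* (lower), where 2.36% of all genes were called higher and 1.6% lower. Between Lira and T1D mice the count was 465 genes (3.33%) with 1 member, *Ostm1*, and 1.55% of all genes called higher and 1.78% lower. Between Lira and NGT mice the count was 109 genes (0.781%), with 0.487% of all genes called higher and 0.294% lower, and 0 members. Without T1D mouse 1 and Lira mouse 3 the members were *Itgav* and *Ostm1* in T1D against NGT mice (3.84% of all genes) and *Ostm1* in Lira against T1D mice (3.66%). These counts lie near the shares of the whole table and are no result about the members as a list.

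**Figure D1:**
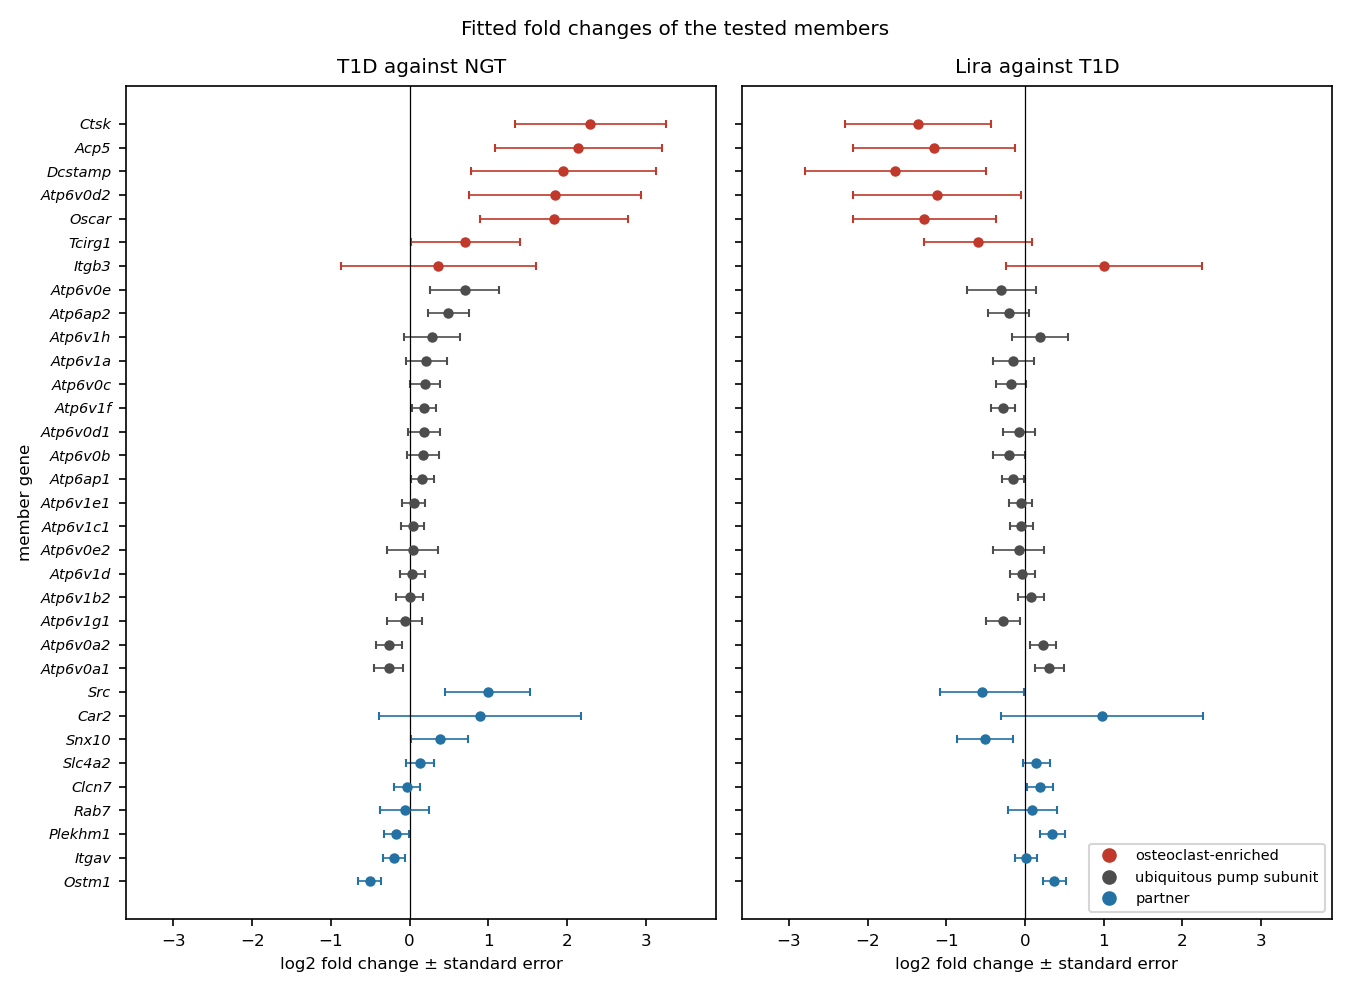
Fitted log2 fold changes (x axis) of the 33 tested members (y axis), with T1D against NGT mice on the left and Lira against T1D mice on the right. Points are edgeR estimates, bars are 1 standard error on each side, and colors mark the osteoclast-enriched, ubiquitous and partner genes. On the left all 7 red points lie above 0 and on the right 6 of 7 lie below it, with bars far longer than those of the ubiquitous subunits.

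Across all genes, same-numbered NGT and T1D mice tended to deviate in the same way from their groups, so the comparison was also made within numbers. The labels name no pairs, and this likeness was read from the same expression values. The T1D mouse had more *Ctsk* than the NGT mouse of its number in 3 of 3 pairs, by 3.85, 11.8 and 6.10 times for numbers 1, 2 and 3. For *Acp5* the ratios were 3.10, 8.92 and 7.09, and for *Atp6v0d2* 3.003, 10.6 and 4.03. *Oscar* had ratios of 3.71, 5.93 and 3.25, and *Tcirg1* of 1.44, 2.50 and 1.68. *Itgb3* went the other way in the first pair, with ratios of 0.697, 2.19 and 3.28. In all, 10 of 33 tested members were higher in the T1D mouse of all 3 pairs (6 of them osteoclast-enriched) and 3 were lower, as were 19.2% and 19.0% of all genes. *Ostm1* was lower in the T1D mouse of every pair, at 0.750, 0.705 and 0.660 of the NGT level. When the fit also held the mouse number as a replicate block, 5 members reached an unadjusted p-value under 0.05 (*Atp6v0d2*, *Ctsk*, *Acp5*, *Oscar* and *Ostm1*) in place of 2, while the share of all genes was 5.39% in place of 3.95%. Their lowest adjusted p-value with the block was 0.865 (edgeR quasi-likelihood F-test, Benjamini-Hochberg adjustment). In Lira against T1D mice 5 members (*Atp6v0d2*, *Ctsk*, *Acp5* and *Oscar*, lower, and *Ostm1*, higher) and 3.63% of all genes reached the limit with the block. With the block and only these 2 groups, 5 members (*Car2* in place of *Ostm1*) and 1.89% of all genes did. Without the block it was 1 member and 3.33% of all genes. The numbers of these groups were not taken as pairs, so the block counts rest on a pairing that was not accepted there. With the block and only the NGT and T1D libraries, an alternative chosen after seeing the data, 8 members and 1931 genes in all (14.2%) reached the same unadjusted limit, and the lowest adjusted p-value of a member was 0.229 (edgeR quasi-likelihood F-test, Benjamini-Hochberg adjustment).

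The mean log2(CPM + 0.5) of the 7 tested osteoclast-enriched genes was 3.28, 0.81 and 2.26 in NGT mice 1 to 3, 4.31, 2.598 and 3.95 in T1D mice, and 2.90, 1.14 and 3.901 in Lira mice. The group means were 2.11 ± 1.24 (SD, n = 3), 3.62 ± 0.90 (SD, n = 3) and 2.65 ± 1.40 (SD, n = 3). The mouse numbered 2 was the lowest of its group in each case, and the groups overlap. The 17 ubiquitous genes had a mean log2(CPM + 0.5) between 5.66 and 5.99 in all 9 libraries, at 5.75 ± 0.07 (SD, n = 3) in NGT, 5.87 ± 0.11 (SD, n = 3) in T1D and 5.80 ± 0.12 (SD, n = 3) in Lira mice. Across the 9 mice, the highest library had 51.1 times the lowest for *Atp6v0d2*, 44.2 times for *Itgb3*, 42.0 times for *Ctsk*, 36.4 times for *Acp5* and 27.4 times for *Oscar*, but 7.003 times for *Tcirg1* and 5.14 times for *Ocstamp*. The lowest library had 4 counts for *Atp6v0d2* and 1 for *Oscar*, and *Dcstamp* was at 0 in 2 libraries. Among the 17 ubiquitous genes this ratio ran from 1.29 (*Atp6ap1*) to 3.34 (*Atp6v0e*).

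The enzymes that digest bone matrix are encoded by *Ctsk* and *Acp5*. *Ctsk* (NCBI gene 13038) encodes cathepsin K, the cysteine protease that cuts bone collagen in the acid space. Its level was 30.4, 2.78 and 11.9 CPM in NGT mice 1 to 3, 117, 32.7 and 72.9 CPM in T1D mice, and 33.97, 5.06 and 47.5 CPM in Lira mice. By CPM every T1D mouse was above every NGT mouse, though T1D mouse 2 exceeded NGT mouse 1 by little, and the Lira mice overlap both other groups. By FPKM T1D mouse 2 (20.6) was below NGT mouse 1 (23.1), so T1D and NGT mice overlap on that scale. The log2 fold change of *Ctsk* was 2.30 (standard error 0.96) in T1D against NGT mice, with an unadjusted p-value of 0.0419 and an adjusted p-value of 0.977 (edgeR quasi-likelihood F-test, Benjamini-Hochberg adjustment). Over all genes, 3.52% had T1D mice entirely above NGT mice by CPM, and *Ctsk* was the 1 tested member that did. *Ctsk* had a log2 fold change of -1.36 (standard error 0.93) in Lira against T1D mice and of 0.94 (standard error 0.93) in Lira against NGT mice. Without T1D mouse 1, the value in T1D against NGT mice was 1.80 (unadjusted p-value 0.120), and without T1D mouse 1 and Lira mouse 3 it was 1.76 (unadjusted p-value 0.127). Its unadjusted p-value was also above 0.05 without NGT mouse 2, where the value was 1.81, without NGT mouse 3, T1D mouse 3 or Lira mouse 1, and with library size in place of TMM. Leaving out NGT mouse 1 gave 3.34. In Lira against T1D mice *Ctsk* stood at -0.87 without T1D mouse 1 and at -1.93 without Lira mouse 3.

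*Acp5* (11433) encodes tartrate-resistant acid phosphatase, the classical stain for osteoclasts. Its level was 35.3, 3.02 and 12.6 CPM in NGT mice, 110, 26.9 and 89.2 CPM in T1D mice, and 34.4, 3.97 and 62.9 CPM in Lira mice. T1D mouse 2 lay below NGT mouse 1, so these groups overlap, and in each group mouse 2 was the lowest. *Acp5* had a log2 fold change of 2.14 (standard error 1.06) in T1D against NGT mice and -1.16 (standard error 1.02) in Lira against T1D mice with unadjusted p-values of 0.0750 and 0.290 in the edgeR F-test, and at 1.77 and -0.78 without T1D mouse 1. Leaving out each mouse moved the value in T1D against NGT mice between 1.65 and 3.27, the latter without NGT mouse 1. In Lira against T1D mice it moved between -1.97 and -0.63. On the per-length FPKM scale *Acp5* and *Ctsk* stood at similar levels, with medians over the 9 libraries of 23.2 and 20.6 FPKM.

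Promoter letters are shown for *Ctsk*, *Acp5* and *Oscar*, 3 of the 4 osteoclast-enriched genes with a window in the RefSeq promoter table, because their first window holds a motif named for osteoclast regulators; the first window of *Tcirg1* holds none of those searched. The RefSeq table of GRCm38.p6, a later build than the mm9 named in the labels, matched 24 of the 34 members with 35 windows. Each window is the 250 bases before the start, 5′ to 3′ on the gene's strand. The positions are chr3:95498960-95499209 (plus strand) for *Ctsk*, chr9:22135747-22135996 (minus strand, the first of 3 windows) for *Acp5* and chr7:3616158-3616407 (minus strand) for *Oscar*. Capitals mark GAGGAA, the core bound by PU.1, and GGAAAA, the core bound by NFAT factors, or their reverse complements TTCCTC and TTTTCC.
Ctsk: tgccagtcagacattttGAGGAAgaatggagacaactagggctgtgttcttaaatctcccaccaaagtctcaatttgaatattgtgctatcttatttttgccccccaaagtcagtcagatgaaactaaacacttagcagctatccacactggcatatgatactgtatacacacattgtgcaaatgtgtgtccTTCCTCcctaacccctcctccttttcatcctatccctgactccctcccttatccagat
Acp5: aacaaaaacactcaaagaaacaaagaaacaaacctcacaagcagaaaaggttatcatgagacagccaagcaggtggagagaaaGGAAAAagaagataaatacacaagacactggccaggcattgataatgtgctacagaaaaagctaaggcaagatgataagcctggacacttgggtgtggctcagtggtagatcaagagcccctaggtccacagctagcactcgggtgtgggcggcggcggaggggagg
Oscar: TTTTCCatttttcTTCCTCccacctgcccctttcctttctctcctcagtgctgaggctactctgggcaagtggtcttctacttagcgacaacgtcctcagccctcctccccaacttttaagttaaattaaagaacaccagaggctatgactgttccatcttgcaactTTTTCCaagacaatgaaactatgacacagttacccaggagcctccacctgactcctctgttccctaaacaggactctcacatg
PU.1 and NFATc1 are among the transcription factors known to drive osteoclast formation. GAGGAA was found on either strand in 9 of the 35 member windows and in 23.3% of all 32851 windows. Its 9 genes were *Atp6v0e2*, *Atp6v1d*, *Ctsk*, *Itgav*, *Oscar*, *Slc4a2*, *Snx10*, *Src* and *Tcirg1*, the last outside its first window. GGAAAA was found in 6 member windows (*Acp5*, *Atp6v0c*, *Atp6v0d1*, *Clcn7*, *Oscar* and *Tcirg1*) and in 20.4% of all. Both motifs thus also lie before ubiquitous and partner genes. CACGTG was found in 3 member windows (*Atp6v0b*, *Atp6v1a* and *Clcn7*) and in 6.02% of all windows. TCATGTG, a form read by the osteoclast regulator MITF, was found in 3 (*Acp5*, *Atp6v0c* and *Clcn7*) and in 3.25%, and the AP-1 letters TGACTCA or TGAGTCA in 1 (*Snx10*) and in 4.46%. These matches are descriptions of letters and not of binding sites. The members without a window in the table are *Atp6v0a2*, *Atp6v0d2*, *Atp6v1b2*, *Atp6v1c1*, *Atp6v1g1*, *Atp6v1h*, *Car2*, *Dcstamp*, *Ocstamp* and *Itgb3*.

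**Figure D2:**
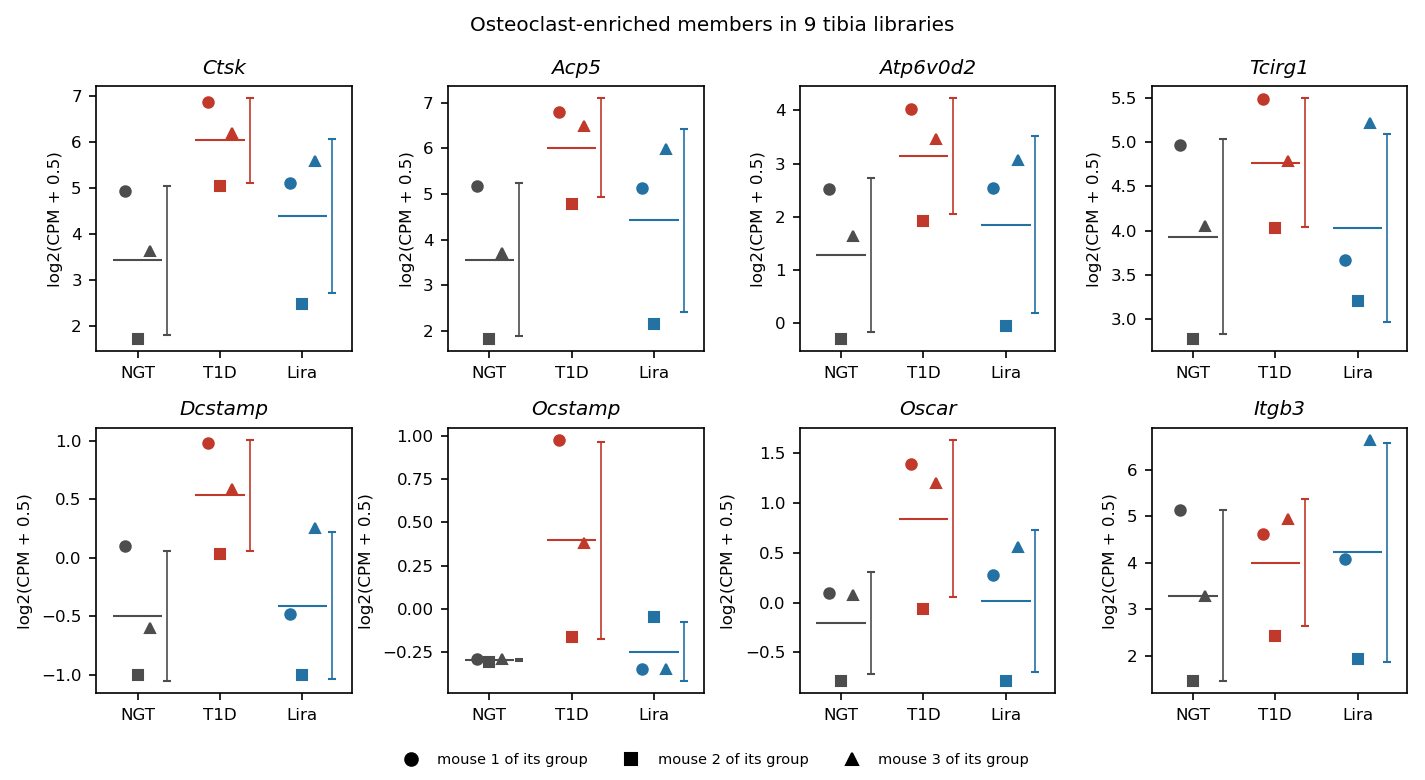
Levels of the 8 osteoclast-enriched genes as log2(CPM + 0.5) (y axis) in NGT, T1D and Lira mice (x axis). Symbols mark mouse 1, 2 and 3 of each group, horizontal lines the group mean and bars the SD (n = 3). For Ctsk, Acp5, Atp6v0d2 and Oscar mouse 2 is the lowest of every group, and for Itgb3 the highest library is Lira mouse 3 at 99.1 CPM.

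*Tcirg1* (27060) and *Atp6v0d2* (242341) encode the a3 and d2 subunits of V0, which osteoclasts use in the pump at the ruffled border. *Tcirg1* stood at 30.9, 6.34 and 16.2 CPM in NGT mice, 44.4, 15.9 and 27.1 CPM in T1D mice, and 12.2, 8.72 and 36.8 CPM in Lira mice. *Atp6v0d2* stood at 5.27, 0.31 and 2.61 CPM in NGT mice, 15.8, 3.27 and 10.5 CPM in T1D mice, and 5.28, 0.47 and 7.86 CPM in Lira mice. Both genes had their highest library in T1D mouse 1 and their lowest in NGT mouse 2, with overlap between the groups. The log2 fold change in T1D against NGT mice was 1.85 (standard error 1.09) for *Atp6v0d2* and 0.71 (standard error 0.69) for *Tcirg1*. These were 1.33 and 0.27 without T1D mouse 1, 1.32 and 0.31 without NGT mouse 2, and 2.76 and 1.38 without NGT mouse 1. Between Lira and T1D mice it was -1.12 (standard error 1.07) and -0.59 (standard error 0.69), and without T1D mouse 1 they stood at -0.60 and -0.15 there, and without Lira mouse 3 at -1.78 and -1.48. The *Atp6v0d2* levels rest on few reads in part, with 4 counts in NGT mouse 2 and 6 in Lira mouse 2 against 291 in T1D mouse 1.

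The paralogs that fill the same places in the pumps of other cells varied far less. *Atp6v0d1* (11972), the ubiquitous d subunit, had 33.6, 35.3 and 35.7 CPM in NGT mice, 51.5, 32.9 and 34.1 CPM in T1D mice, and 42.7, 30.8 and 39.1 CPM in Lira mice. *Atp6v0a1* (11975), which encodes the a1 subunit, had 106, 129 and 135 CPM in NGT mice, 83.8, 127 and 96.7 CPM in T1D mice, and 133, 125 and 123 CPM in Lira mice. *Atp6v0a2* (21871), which encodes the a2 subunit, had 45.8, 60.7 and 54.3 CPM in NGT mice, 40.1, 49.1 and 44.9 CPM in T1D mice, and 51.1, 59.0 and 46.6 CPM in Lira mice. T1D mouse 1 was the highest of the 9 mice for *Atp6v0d1* and the lowest for *Atp6v0a1* and *Atp6v0a2*.

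Within a library, the ratio of the enriched to the ubiquitous paralog hardly depends on how libraries are scaled, apart from the pseudocount of 0.5 CPM. That pseudocount exceeds the *Atp6v0d2* level in NGT mouse 2 (0.31 CPM) and Lira mouse 2 (0.47 CPM), so it shapes their ratios. The mean log2 ratio of *Atp6v0d2* to *Atp6v0d1* was higher by 1.70 in T1D than in NGT mice (two-sided exact permutation test over mice, p = 0.2) and differed by -1.23 between Lira and T1D mice (exact p = 0.3). The log2 ratio of *Tcirg1* to *Atp6v0a1* differed by 1.11 (exact permutation test, p = 0.3) and by -1.06 (exact p = 0.3). Between Lira and NGT mice the differences were 0.47 (exact permutation test, p = 0.6) and 0.05 (exact p = 0.9), and both turned negative without T1D mouse 1 and Lira mouse 3, at -0.10 and -0.57. With 3 mice against 3 the smallest p-value is 0.1, so this test cannot reach 0.05. Within mouse numbers the T1D minus NGT differences were 0.89, 2.32 and 1.89 for *Atp6v0d2* to *Atp6v0d1* and 0.86, 1.27 and 1.21 for *Tcirg1* to *Atp6v0a1*, positive in 3 of 3 pairs for both, and the permutation over mice does not use these pairs. The SD of the log2 ratio within groups was 0.86 to 1.48, as large as most of the differences.

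On the FPKM scale, which accounts for transcript length, *Atp6v0d2* made up 8.62%, 0.356% and 4.49% of the d subunit transcripts in NGT mice 1 to 3, 16.3%, 5.92% and 16.5% in T1D mice, and 6.96%, 0.971% and 11.1% in Lira mice. *Atp6v0d1* thus supplied most of the d subunit transcripts in every tibia. *Tcirg1* made up 24.2%, 5.34% and 12.0% of the a subunit transcripts in NGT mice, 36.3%, 12.5% and 23.5% in T1D mice, and 9.57%, 7.03% and 25.5% in Lira mice. The mean share of *Tcirg1* was 13.8% ± 9.54 (SD, n = 3), 24.1% ± 11.9 (SD, n = 3) and 14.0% ± 9.999 (SD, n = 3) in NGT, T1D and Lira mice. *Atp6v0a1* held the largest share of the a subunits in each library, from 46.7% to 70.0%.

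**Figure D3:**
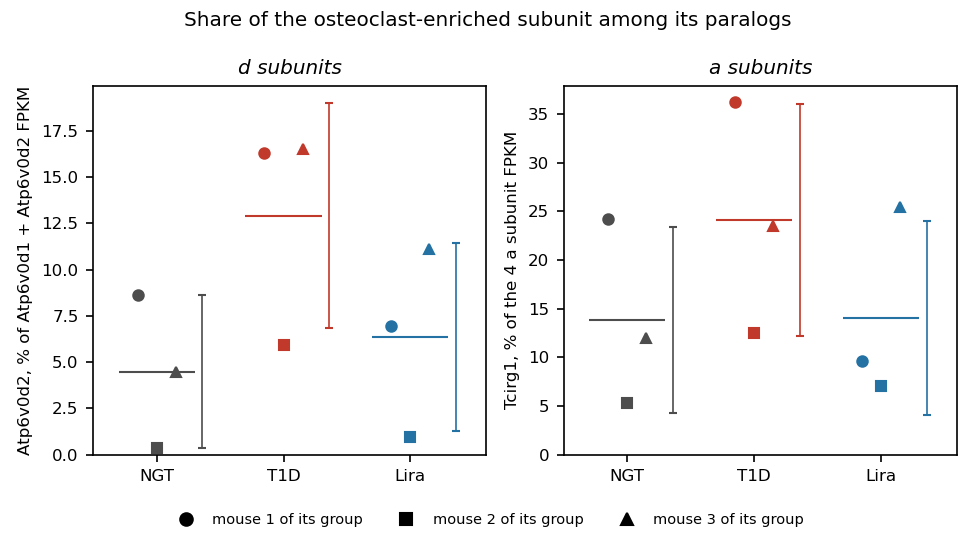
Share of Atp6v0d2 among the d subunit FPKM (left, percent) and of Tcirg1 among the FPKM of the 4 a subunit genes (right, percent) in NGT, T1D and Lira mice. Symbols mark mouse 1, 2 and 3 of each group, lines the mean and bars the SD (n = 3), and both axes start at 0. The means are 4.49%, 12.9% and 6.35% on the left and 13.8%, 24.1% and 14.0% on the right, with overlapping mice.

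The other V0 subunits, the V1 subunits and the accessory proteins were abundant in each library. By median FPKM over the 9 libraries, *Atp6v0c*, the proteolipid of the rotating ring, was highest with 139 FPKM, followed by *Atp6v1g1* with 114 and *Atp6v1f* with 75.2 FPKM. The lowest was *Atp6v1a*, the catalytic subunit, with 7.42 FPKM. The 8 V1 genes had log2 fold changes of -0.06 (*Atp6v1g1*) to 0.28 (*Atp6v1h*) in T1D against NGT mice and of -0.28 to 0.19 in Lira against T1D mice. *Atp6v1b2*, which encodes the B2 subunit of the ATP-splitting head, had 80.3 ± 9.53 CPM (SD, n = 3) in NGT, 80.4 ± 12.8 CPM (SD, n = 3) in T1D and 84.8 ± 7.80 CPM (SD, n = 3) in Lira mice. *Atp6v1f*, part of the central stalk, was lower in every Lira mouse than in every T1D mouse, at 42.0 ± 2.93 CPM (SD, n = 3) against 51.1 ± 5.77 CPM (SD, n = 3). Of all genes 3.4% were placed in this way, and the log2 fold change of *Atp6v1f* was -0.28 (standard error 0.16), with an unadjusted p-value of 0.107 in the edgeR F-test. On the FPKM scale *Atp6v1f* was 83.1 in Lira mouse 3 and 74.4 in T1D mouse 2, so the groups overlap there.

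Among the ubiquitous genes the largest differences between T1D and NGT mice were in *Atp6v0e*, a small V0 subunit, and *Atp6ap2*, the accessory protein also known as the prorenin receptor. *Atp6v0e* had 17.3 ± 3.72 CPM (SD, n = 3) in NGT, 28.2 ± 14.9 CPM (SD, n = 3) in T1D and 22.9 ± 11.5 CPM (SD, n = 3) in Lira mice. *Atp6ap2* had 24.6 ± 4.89 CPM (SD, n = 3), 34.7 ± 9.51 CPM (SD, n = 3) and 30.0 ± 6.85 CPM (SD, n = 3) in the same order. Their log2 fold changes in T1D against NGT mice were 0.70 (standard error 0.44) and 0.49 (standard error 0.26), with unadjusted p-values of 0.146 and 0.0868 in the edgeR F-test. The same differences were 0.18 and 0.25 without T1D mouse 1. They were -0.30 and -0.21 in Lira against T1D mice, and without T1D mouse 1 they were 0.22 and 0.04. *Atp6ap1*, the other accessory protein, had the smallest ratio of highest to lowest library among the ubiquitous genes on the CPM scale (1.29, against 1.77 on the FPKM scale, where *Atp6v1d* at 1.31 was lower), at 139 ± 10.8 CPM (SD, n = 3) in NGT, 156 ± 13.2 CPM (SD, n = 3) in T1D and 140 ± 9.53 CPM (SD, n = 3) in Lira mice.

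The partner with the lowest unadjusted p-value was *Ostm1* (14628), which encodes the subunit that *Clcn7* needs for its stability in lysosomes and at the ruffled border. *Ostm1* had 35.3, 38.7 and 40.3 CPM in NGT mice, 26.5, 27.3 and 26.6 CPM in T1D mice, and 32.3, 40.3 and 31.6 CPM in Lira mice. On the CPM scale every T1D mouse was below every NGT and every Lira mouse. Of all genes, 5.08% had T1D mice entirely below NGT mice, and *Ostm1* was the 1 member that did. Lira mice lay entirely above T1D mice for 3.74% of all genes and for 2 members, *Ostm1* and *Plekhm1*. On the FPKM scale *Ostm1* was 10.9 in T1D mouse 1 and 9.80 in Lira mouse 1, so these groups overlap there. The log2 fold change of *Ostm1* was -0.51 (standard error 0.14) in T1D against NGT mice and 0.37 (standard error 0.14) in Lira against T1D mice. The unadjusted p-values were 0.00651 and 0.0286, and the adjusted p-values 0.977 and 0.978 (edgeR quasi-likelihood F-test, Benjamini-Hochberg adjustment). In T1D against NGT mice the value stayed between -0.56 and -0.42 in every alternative fit and leave-one-out fit, while in Lira against T1D mice the unadjusted p-value was above 0.05 with library size scaling, when only these 2 groups were fitted, and without any 1 of the 3 T1D mice or Lira mouse 2, where the value was 0.25. *Clcn7* (26373), the chloride-proton exchanger itself, had 25.6, 28.8 and 26.1 CPM in NGT mice, 26.9, 29.7 and 22.1 CPM in T1D mice, and 33.9, 27.3 and 28.7 CPM in Lira mice. Its log2 fold changes were -0.03 (standard error 0.16) and 0.19 (standard error 0.16) in T1D against NGT and in Lira against T1D mice. The difference between the values of *Ostm1* and *Clcn7* was not tested.

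The letters just before the start sites of *Ostm1* and *Clcn7* are shown because these genes encode both parts of the exchanger. Both windows are the 250 bases before the RefSeq start (GRCm38.p6), for *Ostm1* at chr10:42678666-42678915 on the plus strand and for *Clcn7* the first of 2 windows, at chr17:25133141-25133390 on the plus strand. Capitals mark matches to the motifs searched, which are CACGTG and, on the opposite strand, GGAAAA in the *Clcn7* window.
Ostm1: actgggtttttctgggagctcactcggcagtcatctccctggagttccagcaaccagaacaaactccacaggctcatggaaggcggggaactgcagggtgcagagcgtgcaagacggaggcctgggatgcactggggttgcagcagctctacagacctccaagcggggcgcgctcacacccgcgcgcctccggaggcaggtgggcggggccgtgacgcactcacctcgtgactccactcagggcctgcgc
Clcn7: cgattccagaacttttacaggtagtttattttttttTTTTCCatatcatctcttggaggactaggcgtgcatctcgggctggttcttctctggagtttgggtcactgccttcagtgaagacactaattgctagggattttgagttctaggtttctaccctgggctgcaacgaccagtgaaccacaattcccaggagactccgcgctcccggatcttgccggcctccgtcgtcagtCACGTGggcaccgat
CACGTG is the core of the motif read by the lysosomal gene regulator TFEB and its relatives. No searched motif was found in the *Ostm1* window, which says only that these letters are not in it.

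The bicarbonate side of acid secretion is served by *Car2*, which makes the protons, and by *Slc4a2*, which exports the bicarbonate. *Car2* (12349) had 114, 13.9 and 47.3 CPM in NGT mice, 49.2, 15.1 and 263 CPM in T1D mice, and 82.4, 25.5 and 535 CPM in Lira mice. The 2 highest libraries were Lira mouse 3 and T1D mouse 3, and these were also the highest in the summed level of the 9 measured erythroid markers, with 29142 and 19041 CPM against 391 to 6613 CPM in the other 7. Red blood cells carry much carbonic anhydrase, and the part of erythroid RNA in the *Car2* values was not tested. *Car2* had a log2 fold change of 0.90 (standard error 1.29) in T1D against NGT mice and -0.86 without T1D mouse 3. For Lira against T1D mice it was 0.98 (standard error 1.29) and -1.02 without Lira mouse 3. *Slc4a2* had 21.0 ± 1.88 CPM (SD, n = 3) in NGT, 23.1 ± 3.21 CPM (SD, n = 3) in T1D and 25.5 ± 3.74 CPM (SD, n = 3) in Lira mice, with log2 fold changes of 0.13 and 0.14.

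**Figure D4:**
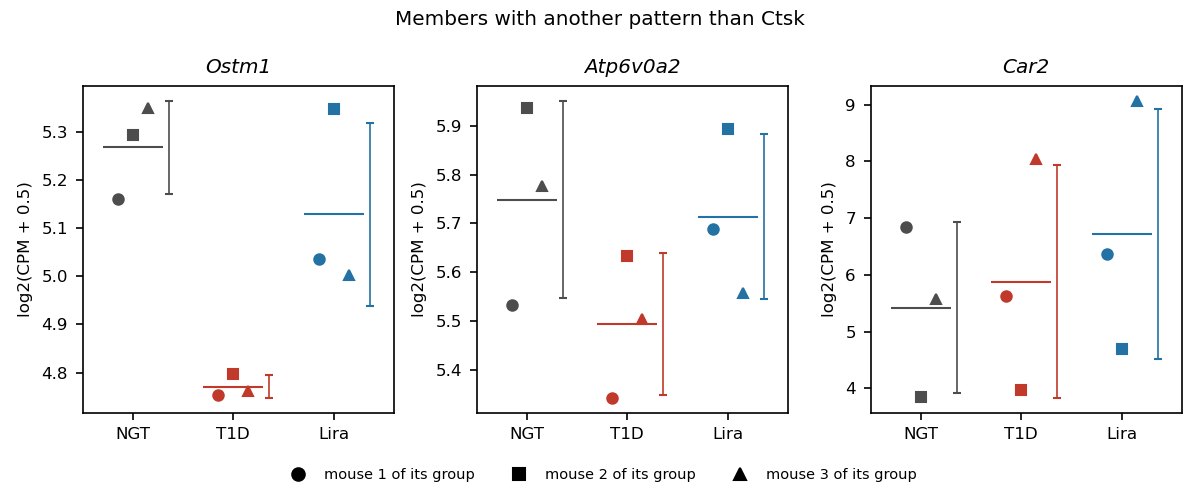
Levels of Ostm1, Atp6v0a2 and Car2 as log2(CPM + 0.5) (y axis, a separate range in each panel) in NGT, T1D and Lira mice (x axis). Symbols mark mouse 1, 2 and 3 of each group, lines the mean and bars the SD (n = 3). The 3 T1D mice of Ostm1 lie together below all others (26.5 to 27.3 CPM), whereas Car2 spreads from 13.9 to 535 CPM.

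Lysosomes reach the ruffled border through sorting and tethering proteins. *Snx10* (71982), a sorting nexin, had 15.7, 12.6 and 17.4 CPM in NGT mice, 30.3, 12.2 and 16.9 CPM in T1D mice, and 11.7, 10.8 and 19.3 CPM in Lira mice. T1D mouse 1 alone lay above the range of the other mice. The log2 fold change in T1D against NGT mice was 0.38 (standard error 0.36), and -0.06 without T1D mouse 1. *Plekhm1*, an effector of *Rab7*, was higher in every Lira than in every T1D mouse, at 38.4 ± 4.40 CPM (SD, n = 3) against 30.2 ± 0.944 CPM (SD, n = 3). Its log2 fold change there was 0.35 (standard error 0.16), with an unadjusted p-value of 0.0625 in the edgeR F-test. On the FPKM scale *Plekhm1* was 7.09 in T1D mouse 1 and 6.32 in Lira mouse 2, so the groups overlap there. *Rab7* itself, the late endosome GTPase, had 521 ± 151 CPM (SD, n = 3) in NGT, 499 ± 106 CPM (SD, n = 3) in T1D and 533 ± 156 CPM (SD, n = 3) in Lira mice.

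The genes for fusion of precursors into large osteoclasts were close to the detection limit. *Dcstamp* (75766), a multipass membrane protein needed for fusion, had 9, 0 and 2 counts in NGT mice, 27, 8 and 15 counts in T1D mice, and 3, 0 and 12 counts in Lira mice. Its fitted log2 fold change was 1.95 (standard error 1.18) in T1D against NGT mice and -1.65 (standard error 1.15) in Lira against T1D mice. The first ranged from 1.41 without NGT mouse 2 to 3.54 without NGT mouse 1. *Ocstamp* (74614), a related membrane protein, had 5, 4 and 4 counts in NGT mice, 27, 6 and 12 counts in T1D mice, and 4, 6 and 5 counts in Lira mice. By CPM it was above the NGT range in all 3 T1D mice, but it was too low to be tested. By FPKM NGT mouse 1 and T1D mouse 2 were both at 0.2. Without the low-count filter *Ocstamp* reached an unadjusted p-value under 0.05 in T1D against NGT and in Lira against T1D mice.

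Attachment to bone uses the integrin made of *Itgav* and *Itgb3*, which signals through the kinase *Src* to form the sealing zone. *Itgb3* (16416) had 34.5, 2.24 and 9.26 CPM in NGT mice, 24.0, 4.91 and 30.4 CPM in T1D mice, and 16.5, 3.35 and 99.1 CPM in Lira mice. Its highest library was Lira mouse 3, which also had the highest summed level of megakaryocyte and platelet markers, and NGT mouse 2 was the lowest for both. Platelets and their precursors carry the same beta 3 integrin, and the part of these cells in the *Itgb3* values was not tested. The log2 fold change of *Itgb3* was 0.36 (standard error 1.24) in T1D against NGT mice, and it turned to -0.15 without NGT mouse 2. In Lira against T1D mice it was 1.01 (standard error 1.24), and -0.997 without Lira mouse 3. Without *Itgb3* the median of the tested osteoclast-enriched genes was 1.90 in T1D against NGT and -1.22 in Lira against T1D mice.

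*Itgav* varied little, at 38.6 ± 1.80 CPM (SD, n = 3) in NGT, 33.6 ± 4.43 CPM (SD, n = 3) in T1D and 33.9 ± 1.43 CPM (SD, n = 3) in Lira mice, and was lower in every Lira than in every NGT mouse, as were 1.78% of all genes. No member had Lira mice entirely above NGT mice, where 2.49% of all genes did. These placements are on the CPM scale. By FPKM *Itgav* was 5.08 in Lira mouse 3 and 4.75 in NGT mouse 2, so the groups overlap there. *Src* (20779) had 6.73, 2.86 and 3.25 CPM in NGT mice, 13.5, 6.09 and 6.00 CPM in T1D mice, and 3.57, 4.21 and 9.70 CPM in Lira mice. T1D mouse 1 was the highest, and the other T1D mice lay just below NGT mouse 1. *Src* had a log2 fold change of 0.99 (standard error 0.54) in T1D against NGT mice and -0.55 (standard error 0.53) in Lira against T1D mice, with unadjusted p-values of 0.0987 and 0.330 in the edgeR F-test. Both shrank without T1D mouse 1, to 0.49 and -0.05. Leaving out each mouse moved the first between 0.49 and 1.48 and the second between -1.14 and -0.05.

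*Oscar* (232790) encodes a collagen-binding receptor that gives osteoclast precursors a costimulatory signal. It had 9, 1 and 7 counts in NGT mice, 39, 7 and 27 counts in T1D mice, and 10, 1 and 17 counts in Lira mice. The corresponding levels were 0.57, 0.08 and 0.55 CPM, then 2.12, 0.46 and 1.80 CPM, and 0.71, 0.08 and 0.98 CPM. *Oscar* had a log2 fold change of 1.84 (standard error 0.94) in T1D against NGT mice and -1.28 (standard error 0.91) in Lira against T1D mice, with unadjusted p-values of 0.0854 and 0.196 in the edgeR F-test, and 1.46 and -0.90 without T1D mouse 1.

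The level of each of the 32 other tested members was correlated with that of *Ctsk* over the 9 mice as log2(CPM + 0.5), and the values are a description of how members varied from mouse to mouse. *Acp5* had Pearson r = 0.991 and Spearman rho = 0.95, *Atp6v0d2* r = 0.983 and rho = 0.983, and *Tcirg1* r = 0.879 and rho = 0.767. *Dcstamp* had r = 0.940, *Oscar* r = 0.934 and *Itgb3* r = 0.769, so that all 6 of the other tested osteoclast-enriched genes lay above 0.76. An exact permutation of pairings gave 11 of the 32 members under 0.05 after Benjamini-Hochberg adjustment by r and 7 by rho. It takes the 9 mice as exchangeable and so ignores both group and mouse number, and the members were chosen with results known. Without the 2 mice farthest from the median of *Ctsk* (Lira mouse 2 and NGT mouse 2), r was 0.976 for *Acp5*, 0.946 for *Atp6v0d2*, 0.668 for *Tcirg1* and 0.429 for *Itgb3*. As deviations from the group means, r was 0.992 for *Acp5*, 0.992 for *Atp6v0d2*, 0.902 for *Tcirg1* and 0.929 for *Itgb3*. As deviations from both group and number means, chosen after seeing the data, r was 0.965, 0.976, 0.769 and 0.861 in the same order, but 0.054 for *Oscar*. Mouse 2 was the lowest of its group for *Ctsk* and also for the neutrophil, megakaryocyte and erythroid sums, and the part of marrow RNA in these relations was not tested.

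Among the 17 ubiquitous pump genes, *Atp6ap2* (r = 0.875) and *Atp6v0e* (r = 0.807) had the highest values and the median r was 0.40. The strongest negative values were those of *Atp6v0a2* (r = -0.962, rho = -0.883) and *Ostm1* (r = -0.863, rho = -0.883). Several of the values outside the osteoclast-enriched genes depend on how libraries are scaled. With library size in place of TMM r was -0.41 for *Atp6v0a2* and -0.32 for *Ostm1*, and with FPKM -0.42 and -0.33. The median of the ubiquitous genes was 0.69 with library size and 0.68 with FPKM, and *Atp6v1d* turned from -0.25 to 0.69 with library size. The 6 osteoclast-enriched genes lay between 0.80 and 0.99 with library size. Without T1D mouse 1 and Lira mouse 3, 3 members passed the same permutation test over 7 mice (*Acp5*, *Atp6v0d2* and *Atp6v0a2*), without T1D mouse 1 alone 5 did, and with library size 16 did.

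**Figure D5:**
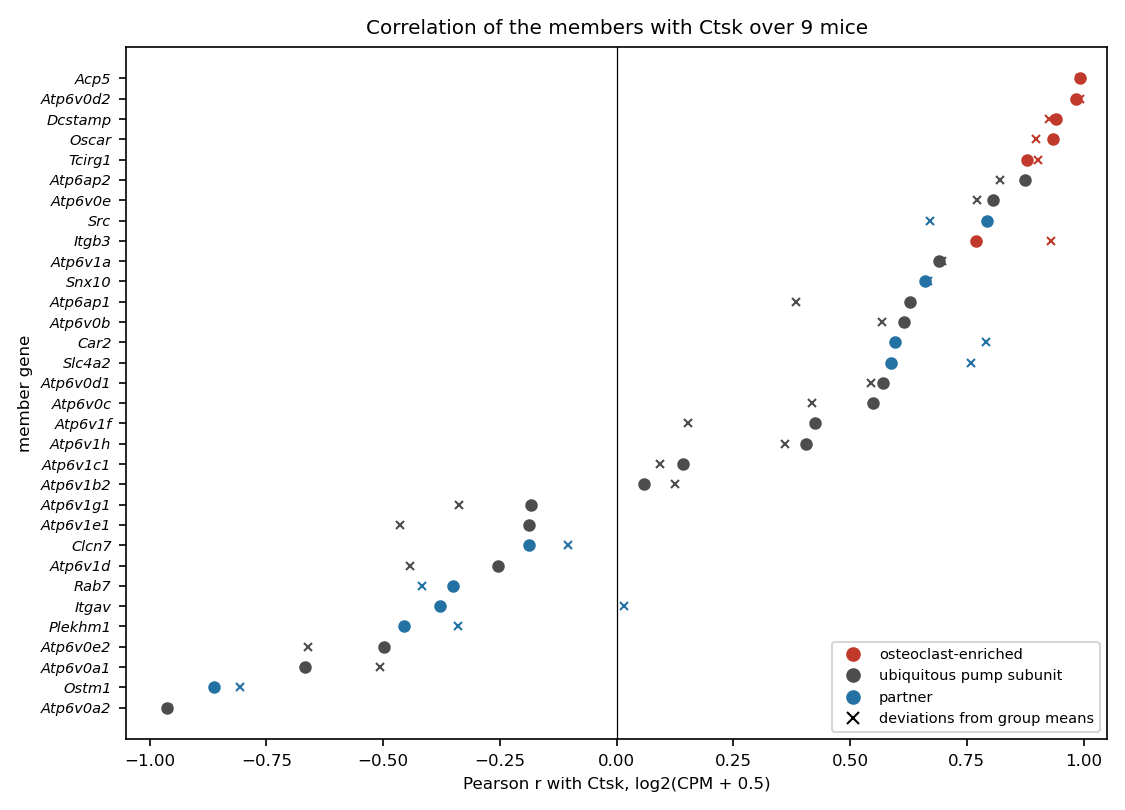
Pearson r with Ctsk over 9 mice (x axis), computed on log2(CPM + 0.5), for the 32 other tested members (y axis). Dots are r over all mice and crosses are r of deviations from the group means, colored by class. Acp5 (0.991) is at the top and Atp6v0a2 (-0.962) at the bottom, and all 6 red dots lie above 0.76.

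Other genes of the same pathways, from lists fixed by role, were described by their counts. Of 14 further pump subunits and assembly factors, 10 were tested, 0 had an unadjusted p-value under 0.05 in either comparison with T1D mice, and their median log2 fold change was -0.05 in T1D against NGT mice. The most abundant were *Vma21*, an assembly factor of the pump in the endoplasmic reticulum (50.5 to 70.4 CPM), and the regulators of pump assembly *Dmxl1* (30.6 to 56.4 CPM) and *Wdr7* (24.2 to 51.9 CPM). Of the 16 podosome and integrin signaling partners, 0 had an unadjusted p-value under 0.05 in T1D against NGT mice and 1 in Lira against T1D mice (*Cbl*, log2 fold change 0.76, named after its values were seen, and 0.61 with an unadjusted p-value of 0.123 in the edgeR F-test without T1D mouse 1), with medians of 0.14 and 0.25. *Gsn*, *Rac1* and *Tln1* were the most abundant of them. Of the 17 genes of lysosome transport and secretion, 0 reached it in either comparison, with medians of -0.14 and 0.16.

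Of the 21 lysosomal enzymes and membrane proteins, 3 reached an unadjusted p-value under 0.05 in T1D against NGT mice, all higher (*Ctss*, *Glb1* and *Lamp2*, named after their values were seen), and 1 did in Lira against T1D mice, lower (*Cd63*, likewise). Their median log2 fold changes were 0.26 and -0.15. *Ctss*, the cathepsin of antigen-presenting cells, had a log2 fold change of 4.22 in T1D against NGT mice, which rested on T1D mouse 1 with 494 CPM against 20.7 and 11.6 CPM in T1D mice 2 and 3, and was 0.78 without it. When that mouse was left out, 0 of the 21 genes were below 0.05 unadjusted in either comparison (the edgeR F-test), and the medians were 0.05 and 0.01. Of 10 tested macrophage markers, 5 (*Adgre1*, *Cd68*, *C1qa*, *C1qb* and *C1qc*, named after their values were seen) had an unadjusted p-value under 0.05 and a positive log2 fold change in T1D against NGT mice, and 0 did without T1D mouse 1. Between Lira and T1D mice 2 of them (*C1qb* and *C1qc*) had an unadjusted p-value under 0.05, both lower, and 0 without that mouse. The summed level of all 11 was 49.5 to 143 CPM in NGT, 100.6 to 985 CPM in T1D and 102 to 147 CPM in Lira mice. Their part in the levels of the osteoclast-enriched genes was not tested. Of 6 tested osteoclast genes that are no members, 1 (*Tnfrsf11a*, the receptor RANK, named after its values were seen) was below 0.05 unadjusted in both comparisons, with log2 fold changes of 1.95 and -1.45 (the edgeR F-test), and 1.15 and -0.65 without T1D mouse 1, where it was above 0.05. The medians of the 6 were 0.47 and -0.24, with 4 and 1 of them positive. *Nfatc1*, the master regulator of osteoclast formation, stood at -0.09 and 0.25, and *Calcr* at -0.28 and -0.25.

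Among 10382 tested genes with a mean of at least 5 CPM that are no members, those with a pattern over the 9 mice most like that of *Ctsk* included *Spp1* (Pearson r = 0.988), *Mmp13* (0.970), *Tnc* (0.956), *Tmem50a* (0.956), *Id2* (0.941), *Ibsp* (0.934), *Cdh11* (0.933), *Pctp* (0.933) and *Fgfr2* (0.933). *Spp1* encodes osteopontin and *Ibsp* bone sialoprotein, both of mineralized matrix, and *Mmp13* encodes collagenase 3. The mean level of *Spp1* was 34.2 CPM in NGT, 209 CPM in T1D and 89.7 CPM in Lira mice, and that of *Mmp13* was 11.1, 103 and 35.9 CPM. The summed level of the 10 osteoblast markers, *Ibsp* among them, was 207 to 1397 CPM in NGT, 700.1 to 5593 CPM in T1D and 419 to 1219 CPM in Lira mice, and the part of osteoblast RNA in these patterns was not tested. All points come from the same 9 libraries, and the values are given as a description of likeness.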

How the data were processed

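RNA-seq was done on 1 tibia per mouse, with 3 mice in each of the groups NGT, T1D and Lira. The authors selected mRNA with oligo(dT), mapped the cleaned reads, and deposited estimated counts for each gene without normalization. The authors also deposited FPKM values, which correct for gene length and depth. The labels name the build mm9, and the aligner, counting tool and strand setting are not given in the sources used here. Of the estimated counts, 30.2% were not whole, and they were rounded. All 9 libraries were mapped to groups by their labels. The labels do not say that same-numbered mice shared a day or litter. The p-values measure the spread between these mice.

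The test covered 13960 of 18272 genes, those reaching 10 counts in 3 or more libraries. Counts were fitted in R 4.3.3 with edgeR 4.0.16 (TMM, glmQLFit and glmQLFTest, 3 group means over all 9 libraries, two-sided). DEGs had a fold change over 2 at an adjusted p-value under 0.05, after the study's thresholds. The biological coefficient of variation was 0.433. CPM used a pseudocount of 0.5 on the log2 scale. Paralog ratios were compared by exact permutation over mice, and correlations with *Ctsk* by exact permutation of pairings. The fit was tested on simulated data for T1D against NGT mice. There 110 of 200 genes changed 4-fold were recovered with 8 false calls among 13809 genes, and 182 of 200 changed 16-fold with 9 false calls among 13814. Each simulated gene varied independently of the others, without the swings between libraries that many genes share here. The shares recovered therefore do not tell how often such changes would be found in these 9 libraries.

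Across genes, the deviations of same-numbered NGT and T1D mice from their group means correlated at r = 0.583, 0.647 and 0.283, all above 0.1. The numbers were therefore taken to pair these groups, though no label says so. NGT and T1D mice of different numbers had r from -0.697 to 0.067, but Lira mouse 3 and NGT mouse 1 had 0.780. Such values cannot decide whether the numbers mark pairs. The fit described above has no block, and the block, the within-number ratios and the block with 2 groups are given beside it. For Lira with T1D mice the values were -0.244, 0.615 and 0.271, and for Lira with NGT mice -0.173, 0.727 and 0.012, and these were not taken as pairs.

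All 34 members are named in the text or on the gene axes of the figures. Values for every mouse are given for the 8 osteoclast-enriched genes, for *Atp6v0d1*, *Atp6v0a1*, *Atp6v0a2*, *Car2*, *Clcn7*, *Ostm1*, *Snx10* and *Src*, and for any member with an unadjusted p-value under 0.05. From other lists at most the 3 most abundant genes are named, and any further gene is marked as chosen after its values were seen. Of the 10 genes most like *Ctsk*, 1 is not reported here. The members and lists were chosen with earlier results of these data known. Alternatives were DESeq2 1.42.0, library size in place of TMM, normalization without muscle markers, no low-count filter, fits of only the 2 groups compared, a replicate block, FPKM, another pseudocount of 2 CPM, no fold threshold and leaving out each mouse. The robust option of edgeR, the block with only 2 groups, the median without *Itgb3*, *Ctsk* correlations of deviations from group and number means, and fits without T1D mouse 1 and Lira mouse 3 were chosen after seeing the data. Promoter windows were searched on both strands in Python 3.11.15.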

Additional observations from a re-analysis of the deposited data

How the results depend on the processing

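Leaving out any mouse left 0 DEGs in each comparison, and DESeq2 called 1 in Lira against T1D mice. The median log2 fold change of the osteoclast-enriched genes kept its direction under every alternative run. It ranged from 1.37 to 2.76 in T1D against NGT mice, from -1.82 to -0.63 in Lira against T1D mice and from 0.03 to 1.89 in Lira against NGT mice when each mouse was left out. The number of members with an unadjusted p-value under 0.05 in T1D against NGT mice was 1 with library size in place of TMM, 5 with the replicate block, 8 with the replicate block and only the 2 groups compared, and 1 to 6 when each mouse was left out (6 without NGT mouse 1, 4 without T1D mouse 2 or Lira mouse 2, and 1 without NGT mouse 2, NGT mouse 3, T1D mouse 3 or Lira mouse 1). It was 3 with DESeq2 (4.99% of all genes), with only the 2 groups compared (4.02%) and without the low-count filter (3.75%). The share of all genes at the same limit was 3.95% in the fit reported, 3.40% with library size, 5.39% with the block, 14.2% with the block and 2 groups, and between 1.61% (without NGT mouse 2) and 7.32% (without NGT mouse 1) when each mouse was left out. In Lira against T1D mice the number of members was 0 with library size (2.51% of all genes), 2 without the low-count filter (2.97%), 0 with only the 2 groups compared (2.14%), 5 with the replicate block in either form (3.63% and 1.89% of all genes), and 0 to 2 when each mouse was left out (1.83% to 5.35%). With the block no member and no other gene had an adjusted call. The median of the ubiquitous subunits ranged from 0.016 to 0.21 in T1D against NGT mice and from -0.20 to 0.042 in Lira against T1D mice when each mouse was left out. It was -0.0040 without T1D mouse 1 and Lira mouse 3 in T1D against NGT mice, and -0.20 with library size in Lira against T1D mice. Signs turned in these cases when each mouse was left out. In T1D against NGT mice *Itgb3* ranged from -0.15 to 1.79, *Car2* from -0.86 to 1.83 and *Snx10* from -0.063 to 0.63. In Lira against T1D mice *Itgb3* ranged from -0.997 to 1.55, *Car2* from -1.02 to 2.73, *Atp6v0e* from -0.78 to 0.22 and *Atp6ap2* from -0.38 to 0.038. In Lira against NGT mice the log2 ratio of *Atp6v0d2* to *Atp6v0d1* ranged from -0.34 to 1.29 and that of *Tcirg1* to *Atp6v0a1* from -0.57 to 0.67. Without T1D mouse 1 and Lira mouse 3, *Snx10* was -0.086 in T1D against NGT mice, *Itgb3* -0.83 and *Car2* -1.36 in Lira against T1D mice, and the 2 ratios were -0.10 and -0.57 in Lira against NGT mice. The members correlated with *Ctsk* numbered 16 with library size, 10 with FPKM, 5 to 10 when each mouse was left out, and 3 without T1D mouse 1 and Lira mouse 3, where 7 mice are left. For the other changes the cause was not tested. At this depth *Dcstamp*, *Ocstamp* and *Oscar*, with at most 39 counts in a library, carry large counting error.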
